A study of Homo sapiens with 29 samples.

Results

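The 55 genes described here encode proteins that make ribosomes. They were taken from a list of named genes that covered RNA polymerase I, nucleolar phosphoproteins and chaperones, the small nucleolar ribonucleoproteins (snoRNPs), rRNA modification and the assembly of both ribosomal subunits. All 55 were found among the 35579 genes into which the transcripts were summed, and 54 of them passed the filter on low values among the 9085 genes tested. RNA was measured in 10 lines of PC9, a lung adenocarcinoma cell line whose growth depends on a mutant EGFR. PAR was the parental line, KO was a CRISPR knockout of the receptor kinase AXL made in PAR, and the 8 other lines were KO cells transduced by lentivirus with a receptor that was wild type (WT), lacked kinase activity (KD) or carried 1 of 6 tyrosine-to-phenylalanine changes (Y634F, Y643F, Y698F, Y726F, Y750F, Y821F). Each line was grown untreated, with the EGFR inhibitor erlotinib (E), or with erlotinib and AF154, an antibody that activates AXL (EA), and treatment lasted 24 h.

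There was 1 library per line and treatment, giving 10 untreated libraries, 10 with E and 9 with EA. The EA treatment of KO was not analysed here. The lines therefore served as the replicates of a treatment, although 9 of the 10 descend from 1 knockout line and carry different receptors. Their shared descent means that the p-values measure the spread between related lines and not between independently derived cultures. By the paper's account, only a minority of the cells in the transduced pools expressed AXL.

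Ribosome production begins in the nucleolus, where RNA polymerase I transcribes the rDNA and the precursor is cut, methylated and pseudouridylated while ribosomal proteins are loaded onto it. The process is among the costliest of a growing cell and is tied to growth factor signalling, with MYC among its best known activators. The libraries were made from polyadenylated RNA, so they report the mRNAs of these factors and not rRNA or its precursors.

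Values are TPM, a length-corrected abundance scaled to the same total in each library, which gives the share of a gene in the mRNA of a library per unit length. Levels of different genes can thus be compared, but less RNA per cell, fewer cells of a kind and a rise of other transcripts cannot be told apart. A change is a difference of log2(TPM + 1). On this scale a fall of 1 is close to a loss of 1 part in 2 for well expressed genes. For low ones it stands for a larger loss. A gene is called higher or lower where its limma p-value, adjusted over all 9085 genes, was under 0.05. TPM keeps no read numbers, and sequencing depth is therefore unknown. All 8 epithelial markers were at 10 TPM or more in every library, whereas the lung lineage factor NKX2-1 was under 1 TPM in all of them. Leukocyte markers summed to at most 2.29 TPM. The 4 endothelial markers summed to 5.51 to 10.2 TPM untreated, 2.17 to 6.85 TPM with E and 2.63 to 6.58 TPM with EA, with VWF and KDR under 1 TPM in every library and PECAM1 lower with E in 10 of 10 lines (means 6.49 and 2.20 TPM). Of 6 fibroblast markers COL1A1 was at 10 TPM or more in every library, and COL1A2, COL3A1 and LUM were under 1 TPM in all. The summed fibroblast markers ran from 16.2 to 36.6 TPM untreated, from 37.9 to 62.6 TPM with E and from 34.7 to 73.0 TPM with EA, and the part of either marker list in the results was not tested. The targeted AXL mRNA was at 92.4 TPM in untreated KO and at 79.3 TPM in KO with E, below the 217 TPM or more of all other libraries.

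Ribosome biogenesis mRNAs fell with erlotinib in every line. The 55 genes together held between 0.585% and 0.698% of the TPM of an untreated library, with a median of 0.655%. With E they held between 0.312% and 0.376%, with a median of 0.354%, so the 2 ranges were far apart. NPM1 and NCL made up a large part of these sums, and without them the shares were 0.368% to 0.416% untreated and 0.193% to 0.235% with E. PAR had the lowest share in both conditions. Its mitochondrially encoded transcripts held 17.4% of the TPM with E, against 12.3% to 14.2% in the other lines. As a share of the remaining TPM, a measure added after the data were seen, the 55 genes were again lowest in PAR, at 0.684% untreated against 0.730% to 0.801% and at 0.378% with E against 0.398% to 0.429%.

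**Figure D1:**
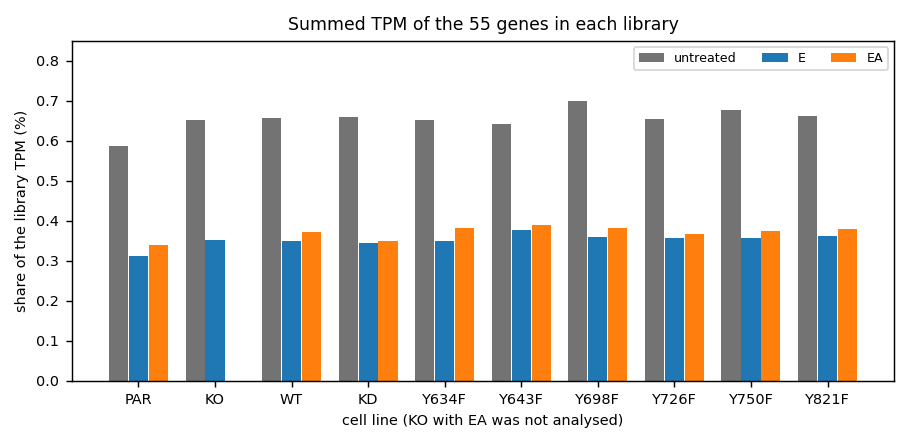
Summed TPM of the 55 genes as a percentage of each library (vertical axis) by cell line, with 1 bar per library, untreated, with E and with EA. In each line the untreated bar is the tallest, between 0.585% and 0.698%, and the EA bars, between 0.339% and 0.388%, stand near the E bars, between 0.312% and 0.376%.

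Of the 54 members tested, 52 were lower with E than untreated and 0 were higher, also at an unadjusted p under 0.05. Among all genes tested, 42.6% were called lower, 36.4% higher and 79.0% in either direction. The median change of the members was -0.83, beside -0.04 over all genes. A fall of at least 1 was called for 20 members, against 6.91% of all genes. The fall was seen in all 10 lines for 49 members (32.5% of all genes were lower in all 10), and for 46 members the 10 libraries with E lay under all 10 untreated libraries (21.6% of all genes). The exceptions to the first of these counts were POLR1C, TAF1D, UBTF, NOB1 and WDR12.

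**Figure D2:**
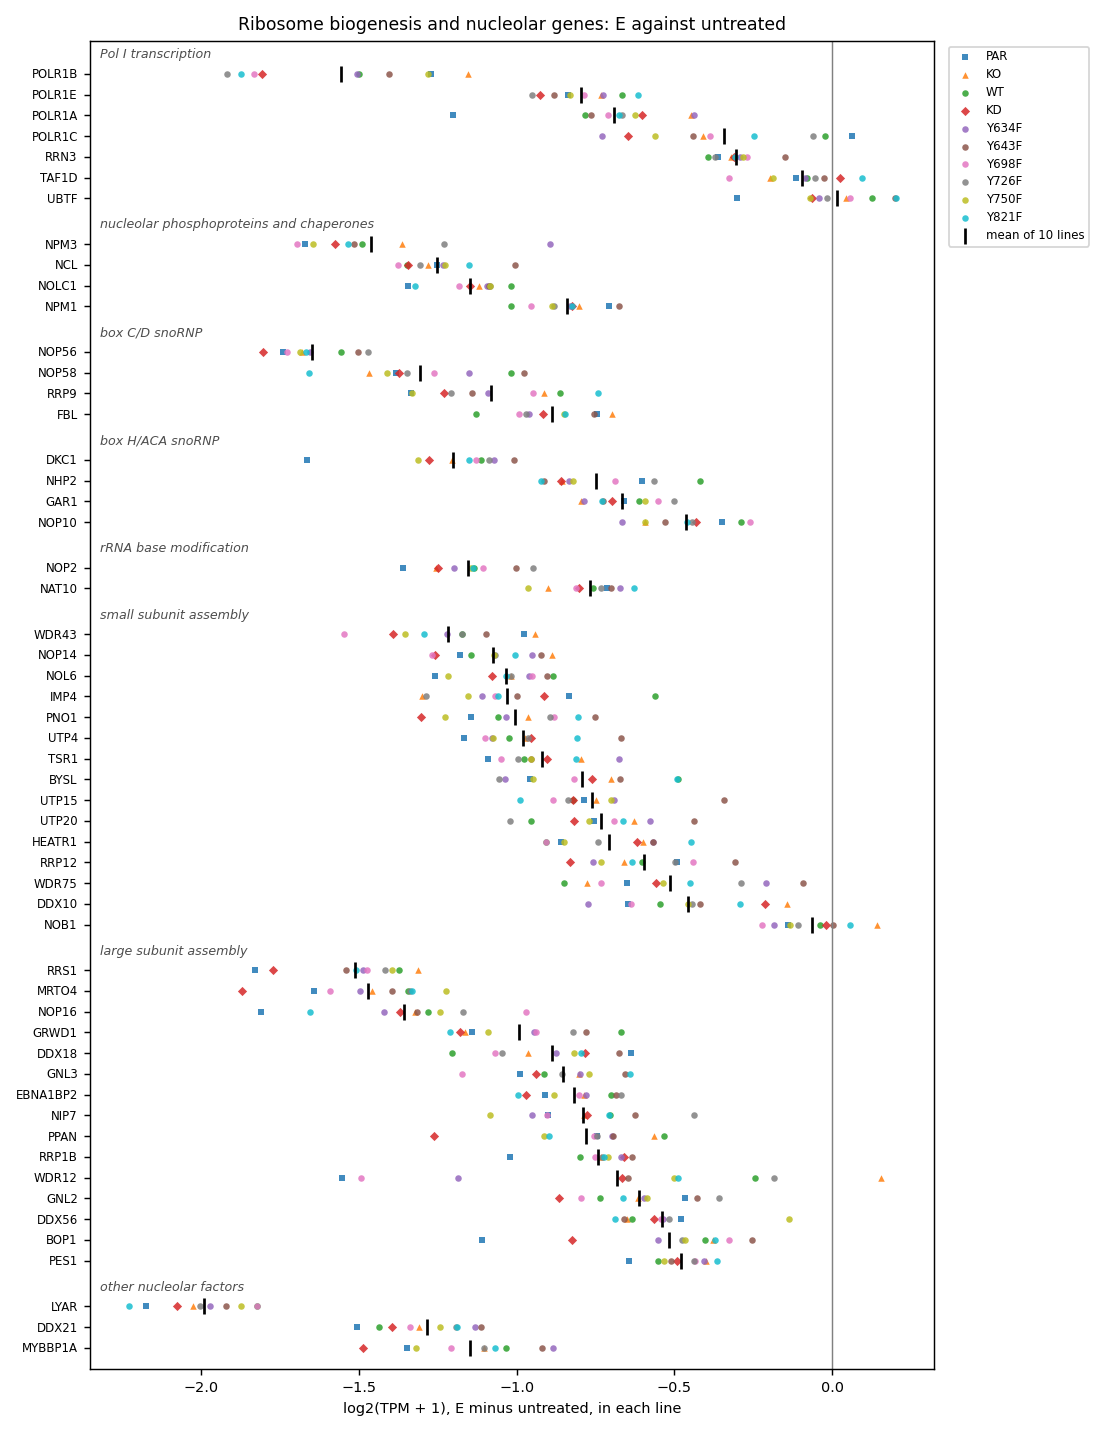
Change of each of the 54 members between E and untreated, as a difference of log2(TPM + 1) (horizontal axis), with 1 point per cell line and a bar at the mean of 10 lines, grouped by role. Nearly all points lie left of 0, LYAR lies farthest left with a mean of -1.99, and lines of UBTF, TAF1D, NOB1, POLR1C and WDR12 lie on both sides of 0.

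RNA polymerase I was not affected evenly. POLR1B, a core subunit of the enzyme, ran from 36.7 to 56.1 TPM untreated (median 46.3) and from 11.7 to 19.7 TPM with E (median 15.5). The groups did not overlap, and the change was -1.55 ± 0.08 (SE, n = 10 lines, limma adjusted p = 1.5e-10), the largest of the role. The catalytic subunit POLR1A fell by 0.69 and POLR1E by 0.80. POLR1C, which RNA polymerase I shares with RNA polymerase III, fell by 0.34 (SE 0.08, adjusted p = 0.000799), with PAR as the only line in which it was higher, by 0.06.

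The factors that bring the polymerase to the rDNA promoter changed less than its subunits POLR1A, POLR1B and POLR1E. UBTF, the upstream binding factor that opens the rDNA, ran from 62.2 to 72.6 TPM untreated (median 66.6) and from 57.6 to 75.2 TPM with E (median 69.2). The 2 ranges overlapped almost fully, with 5 lines higher and 5 lower, and the change of 0.01 ± 0.05 was not called (adjusted p = 0.794). RRN3, the initiation factor that joins the polymerase to the promoter, had medians of 16.2 TPM untreated and 12.8 TPM with E and fell by 0.31 ± 0.05 (adjusted p = 2.68e-05). Its 3 pseudogenes summed to a mean of 7.24 TPM against 14.1 TPM for RRN3 itself, and reads could have been split among them. TAF1D, part of the promoter selectivity factor, had medians of 131 and 120 TPM, and its fall of 0.10 ± 0.04 was past the threshold (adjusted p = 0.0328). Transcripts not annotated protein_coding, such as retained introns, held 90.4% of its TPM untreated and 88.4% with E. Its protein_coding transcripts averaged 12.2 TPM untreated and 13.9 TPM with E. Of 22 alternatives, 10 kept the TAF1D call, 11 lost it and in 1 the sign reversed. The call was lost with library medians centred (adjusted p = 0.280) and without KO, Y634F, Y698F or Y750F (adjusted p 0.0504 to 0.0891), among others. With protein_coding transcripts alone the difference was 0.16 (adjusted p = 0.244). Over all alternatives the adjusted p ran from 0.0127 to 1.0.

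POLR3G, an RNA polymerase III subunit found mostly in stem and tumour cells, was the 1 member under the filter, with a mean of 7.16 TPM over the 29 libraries. It ran from 11.7 to 18.8 TPM untreated (median 15.03) and from 1.005 to 5.20 TPM with E (median 2.86), and was lower in all 10 lines. With the filter lowered to a mean of 1 TPM its change was -2.12 ± 0.13 (adjusted p = 4.03e-09). It shares a place in the enzyme with POLR3GL, the form found in most tissues, which was in the list of other factors. POLR3GL ran from 7.98 to 13.3 TPM untreated and from 15.7 to 19.5 TPM with E, and rose by 0.74 ± 0.07 (adjusted p = 2.29e-07). Thus POLR3G was the more abundant of the pair in the median untreated library, and POLR3GL in every library with E.

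All 4 nucleolar phosphoproteins and chaperones fell, with a median change of -1.20. NCL, nucleolin, which binds the rRNA precursor, ran from 715 to 851 TPM untreated (median 765) and from 297 to 356 TPM with E (median 326). Every library with E was far under every untreated one, and the fall was 1.25 ± 0.03 (adjusted p = 2.59e-13). NPM1, nucleophosmin and the most abundant member, ran from 1448 to 1972 TPM untreated and from 886 to 1061 TPM with E and fell by 0.84. The annotation lists 49 NPM1 pseudogenes, which summed to a mean of 3.89 TPM. NPM3, a smaller chaperone of the same family, had medians of 62.8 and 21.8 TPM and fell by 1.46 ± 0.07, and NOLC1, a scaffold for snoRNPs, had medians of 84.0 and 37.8 TPM and fell by 1.15 ± 0.04.

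The box C/D snoRNPs guide methylation of rRNA and take part in cutting its precursor. All 4 of their proteins fell, with a median of -1.19. NOP56, a core protein of the particle, ran from 231 to 303 TPM untreated (median 264) and from 68.4 to 106 TPM with E (median 83.0), and no libraries overlapped. Its change of -1.65 ± 0.04 had the smallest adjusted p of all members, 4.39e-14. Its partner NOP58 had medians of 92.7 and 36.6 TPM and fell by 1.30 ± 0.06. The methyltransferase FBL, fibrillarin, fell by 0.89 (medians 140 and 73.7 TPM), and RRP9, which belongs to the snoRNP that cuts the precursor, fell by 1.08. The fall of FBL was thus smaller than that of NOP56, the protein next to it in the particle.

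The box H/ACA snoRNPs guide pseudouridylation. All 4 of their proteins fell, with a median of -0.71 that was smaller in size than that of the C/D group. DKC1, dyskerin, the enzyme of the particle, ran from 107 to 132 TPM untreated (median 118) and from 40.1 to 59.7 TPM with E (median 52.7), without overlap, and fell by 1.20 ± 0.05 (adjusted p = 3.59e-11). PAR stood apart from the other lines, with a change of -1.66 against -1.31 to -1.01 in the rest. GAR1 fell by 0.67 and NHP2 by 0.75, and NOP10 fell least, by 0.46 ± 0.04. On the TPM scale, per length, the 4 mRNAs were unequal, with untreated means of 375 TPM for NHP2, 280 TPM for NOP10, 121 TPM for DKC1 and 52.3 TPM for GAR1, and their order was the same with E.

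Both rRNA base-modifying enzymes fell. NOP2, a cytosine methyltransferase of the large-subunit rRNA, ran from 121 to 145 TPM untreated (median 137) and from 46.5 to 73.4 TPM with E (median 60.9), without overlap, and fell by 1.15 ± 0.04 (adjusted p = 2.21e-12). NAT10, an acetyltransferase of the small-subunit rRNA, had medians of 74.1 and 43.4 TPM and fell by 0.77.

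Among the 15 factors of small subunit assembly 14 fell, and the median change was -0.79. NOP14, part of the processome that folds and cuts the small-subunit rRNA, ran from 38.0 to 46.9 TPM untreated (median 40.1) and from 16.8 to 20.3 TPM with E (median 19.1) and fell by 1.08 ± 0.05 (adjusted p = 3.64e-11), without overlap between the groups. WDR43, also of the processome, fell most in the group, by 1.22. NOB1, the nuclease that makes the last cut at the end of the small-subunit rRNA in the cytoplasm, was the member not called. It ran from 47.2 to 59.1 TPM untreated (median 57.5) and from 42.7 to 60.6 TPM with E (median 54.4), with a change of -0.06 ± 0.04 (adjusted p = 0.150). The groups overlapped, and NOB1 was lower with E in 7 lines and higher in 3.

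All 15 factors of large subunit assembly fell, with a median of -0.79. RRS1, which helps to load an rRNA and its proteins onto the early particle, ran from 29.9 to 42.3 TPM untreated (median 35.8) and from 7.69 to 14.5 TPM with E (median 12.5), and fell by 1.51 ± 0.06 (adjusted p = 5.75e-12). The groups were apart, with PAR lowest with E. MRTO4, which holds the place of the ribosomal stalk, had medians of 47.5 and 17.1 TPM and fell by 1.47 ± 0.06. NOP16, another factor of the early particle, had medians of 68.8 and 26.5 TPM and fell by 1.36 ± 0.07.

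PES1, BOP1 and WDR12 act as 1 complex in the maturation of the large-subunit rRNA. By summed TPM their falls were among the smaller ones, 0.48, 0.52 and 0.68. For BOP1 the protein_coding transcripts alone went from a mean of 30.2 TPM untreated to 9.81 TPM with E. WDR12 was the least even of all members across lines, since its summed TPM changed by -1.55 in PAR and by 0.16 in KO. Its SE of 0.15 was the largest. Transcripts not annotated protein_coding held 86.3% of the WDR12 TPM untreated and 84.8% with E. Its protein_coding transcripts ran from 4.06 to 4.84 TPM untreated and from 2.66 to 3.36 TPM with E, without overlap. The smallest fall of the role was that of PES1, which nevertheless had no overlap between 101 to 112 TPM untreated and 68.1 to 84.2 TPM with E.

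The 3 remaining nucleolar factors fell by more than 1. LYAR, a zinc finger protein that acts in rRNA processing, had the largest fall of all members tested. It ran from 37.4 to 48.8 TPM untreated (median 44.2) and from 7.51 to 12.6 TPM with E (median 10.3), and the lowest untreated library was well above the highest with E. The change was -1.99 ± 0.05 (adjusted p = 1.7e-13), and its mean level with E was 0.236 of the untreated mean. DDX21, an RNA helicase that works with RNA polymerase I and with snoRNAs, had medians of 110 and 46.2 TPM and fell by 1.28 ± 0.04. MYBBP1A, a repressor of rDNA transcription and a processing factor, fell by 1.15 ± 0.06.

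**Figure D3:**
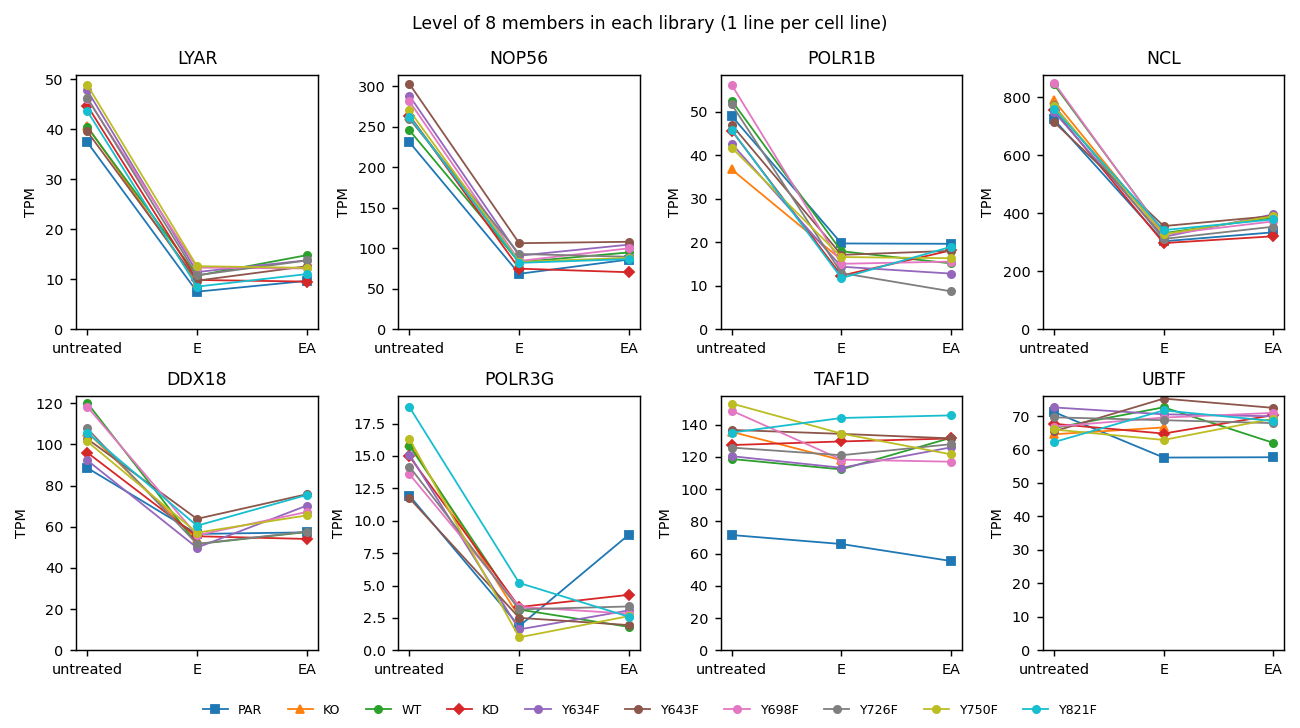
TPM of 8 members in each library (vertical axes, from 0), untreated, with E and with EA, with 1 line per cell line. LYAR, NOP56, POLR1B, NCL, DDX18 and POLR3G drop between untreated and E, UBTF stays between 57.6 and 75.2 TPM in all libraries, and TAF1D lies at 55.4 to 71.5 TPM in PAR against 112 TPM or more elsewhere.

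The size of the fall differed little between lines. The median change of the members was smallest in Y643F, at -0.71, and largest in PAR, at -0.97, and the median over all genes was -0.16 in PAR and between -0.06 and 0.02 in the other lines. In KO, the AXL knockout, it was -0.80 and in KD -0.91, both inside the range of the other lines. At least 51 of the 54 members were lower with E in each line, beside 48.7% (Y643F) to 61.0% (PAR) of all genes.

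Levels also differed between lines within a treatment, most often for PAR. PAR was the lowest of the lines for 21 of 54 members untreated (24.6% of all genes), for 31 with E (37.6%) and for 18 with EA (31.2%). The share of members with EA, 33.3%, was near that of all genes. PAR was the highest for 7 untreated (29.3%), for 5 with E (15.6%) and for 8 with EA (20.9%). Untreated, Y698F was highest for 13 members (9.24% of all genes) and lowest for 1 (4.14%). Y643F was highest for 20 members with E (25.6% of all genes) and lowest for 1 (3.9%). KD was lowest for 18 with EA (16.5%) and highest for 2 (5.16%). These are counts over genes in single libraries, and with 1 parental line there is no test. TAF1D, most of whose TPM lay outside protein_coding transcripts, showed the clearest difference of this kind. Its level in PAR was 71.5 TPM untreated, 65.9 TPM with E and 55.4 TPM with EA, whereas the other lines lay between 119 and 153, between 112 and 144 and between 117 and 146 TPM.

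Many of these genes carry the same E-box in their promoters. The E-box CACGTG is the site to which MYC and MAX bind, and also a site of other factors of their class. Promoters were those of RefSeq on GRCh38.p14, from 250 bases before the start of the gene to 50 bases after it, and 46 of the 55 members had an entry. The motif reads the same on both strands, so a match on 1 strand is a match on the other. It was found in 22 of the 46 (47.8%), counting each gene with the motif in any of its promoters. By the same count it was found in 24.2% of the other ribosome biogenesis factors and 13.3% of the genes tested. The share was 8.77% for all genes with a promoter entry and 6.45% for the cytosolic ribosomal protein genes. For 21 of the 22 a match lay within 50 bases of the start. All 22 were called lower with E, with a median of -0.99, and 22 of the 24 members without it were called lower, with a median of -0.76. Over all genes tested 46.1% of those with the motif were called lower, close to the 42.7% of those without it. A match describes the letters in the window and not binding. The windows of 8 members with large falls that hold the motif follow, with the E-box in capitals. Each is read 5′ to 3′ along the strand of the gene. The core is identical because the windows were found by searching for it, so only the flanks can differ.
LYAR (chr4:4290068-4290097, minus strand): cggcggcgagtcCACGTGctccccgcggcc
MRTO4 (chr1:19251807-19251836, plus strand): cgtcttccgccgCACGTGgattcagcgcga
DDX21 (chr10:68956604-68956633, plus strand): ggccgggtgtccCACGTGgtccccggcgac
WDR43 (chr2:28894658-28894687, plus strand): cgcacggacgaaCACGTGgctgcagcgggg
NOP2 (chr12:6568242-6568268, minus strand): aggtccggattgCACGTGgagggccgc
MYBBP1A (chr17:4555340-4555369, minus strand): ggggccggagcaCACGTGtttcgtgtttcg
NOP14 (chr4:2963374-2963403, minus strand): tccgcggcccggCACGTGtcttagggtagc
RRP9 (chr3:51941892-51941921, minus strand): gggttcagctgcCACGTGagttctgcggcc

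The E-box begins 64 bases before the start of LYAR, 31 before that of DDX21 and 5 before that of RRP9, and after the start in the other 5. Among the 10 largest falls LYAR, MRTO4 and DDX21 had it, NOP56, POLR1B, NPM3, NOP16 and NCL had a promoter entry without it, and RRS1 and NOP58 had no entry.

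MYC itself fell as well. It ran from 75.3 to 105 TPM untreated (median 94.4) and from 27.6 to 51.9 TPM with E (median 43.5), without overlap, and the change was -1.14 ± 0.06 (adjusted p = 4.04e-10). Its partner MAX was lower by 0.18 (adjusted p = 0.0343). Of 9 genes tested in a list of MYC and its partners, 5 were lower and 3 higher. Among those that bind MAX in place of MYC and repress, MXD4 and MXI1 were higher, by 1.79 ± 0.06 (medians 19.1 and 67.4 TPM) and by 0.999 ± 0.09 (medians 8.41 and 16.6 TPM). MXD3 was lower by 0.19 (adjusted p = 0.0263) and MGA by 0.27 (adjusted p = 0.00681), and MNT, at -0.16, was not called (adjusted p = 0.0510). MYCN was listed at or near 0 TPM in every library, so MYC was the main family member in these cells. Their part in the fall of the ribosome biogenesis genes was not tested.

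The fall extended to other factors of the pathway. Of 148 further ribosome biogenesis genes, 134 were tested, 115 were lower with E, 7 were higher and the median change was -0.60. The 3 largest falls were those of RPP25, a subunit of the RNases that process tRNA and rRNA (-1.67 ± 0.06), EXOSC8, a subunit of the RNA exosome (-1.49 ± 0.06), and POLR1G, another subunit of RNA polymerase I (-1.48 ± 0.08). The 3 largest rises were those of ZNHIT3, a snoRNP assembly factor (1.62 ± 0.27), POLR3GL, and NOP53, a factor of the late large subunit (0.59 ± 0.03). NOP53 ran from 146 to 179 TPM untreated and from 220 to 279 TPM with E, without overlap. ZNHIT3 was uneven, from 2.70 to 25.1 TPM untreated and from 12.3 to 40.5 TPM with E, and was lower with E in 1 line.

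The ribosomal proteins themselves moved much less. Of 78 cytosolic ribosomal protein genes 49 were lower and 3 higher, with a median of -0.14, and of 73 mitochondrial ones 65 were lower and 3 higher, with a median of -0.47. Of 19 cytosolic aminoacyl-tRNA synthetases 18 were lower, with a median of -0.63. Genes of replication and mitosis, which mark dividing cells, fell more than the ribosome biogenesis genes, with 34 of 34 lower and a median of -1.51. The part of fewer dividing cells in the fall of the members was not tested.

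Some members changed in the kinds of transcript assigned to them. For 38 members both protein_coding transcripts and transcripts of other classes (retained introns, processed transcripts, targets of nonsense-mediated decay) averaged at least 1 TPM. The ratio of the other classes to the protein_coding ones was higher with E for 13 of them and lower for 1 by the same limma test, beside 9.41% higher and 5.12% lower of 6735 genes. With a pseudocount of 0.1 in place of 1, 4 of the 38 were higher, beside 388 of the 6735 genes. Some of these ratios rest on levels near 1 TPM, and the quantification divided reads among transcripts that overlap, so the assignments are those of the authors' software.

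BOP1 had the largest change of the ratio, 2.65 ± 0.13 on the log2 scale (adjusted p = 9.53e-08, higher in 10 of 10 lines). Its protein_coding transcripts fell from a mean of 30.2 ± 3.28 TPM (SD, n = 10) to 9.81 ± 0.692 TPM, while the other classes rose from 6.86 ± 2.22 to 15.7 ± 2.71 TPM. The share of the other classes thus went from 18.5% to 61.6%, and the fall of 0.52 in the summed gene understates that of the coding transcript BOP1-205, from 29.9 to 9.80 TPM. BOP1-203, a retained intron, went from 2.30 to 5.53 TPM and BOP1-201, a processed transcript, from 2.95 to 6.82 TPM.

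NOP56 was the 1 member with a lower ratio, by 0.95 ± 0.10 (adjusted p = 3.74e-05, lower in 10 of 10 lines). The processed transcript NOP56-216 dropped from 85.4 ± 8.31 to 12.9 ± 1.68 TPM, and the coding NOP56-201 from 102 ± 7.99 to 47.1 ± 4.93 TPM. With protein_coding transcripts alone the fall of NOP56 was 1.15. Smaller rises of the ratio were seen for EBNA1BP2, a large-subunit factor (0.85 ± 0.16, adjusted p = 0.00314), and for RRP12, a small-subunit factor (1.08 ± 0.20, adjusted p = 0.00300), each in 10 of 10 lines. The other classes of EBNA1BP2 averaged 19.5 TPM untreated and 18.9 TPM with E, while its coding transcripts went from 249 to 133 TPM. Those of RRP12 averaged 2.39 and 3.37 TPM, while its coding transcripts went from 25.8 to 14.97 TPM.

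**Figure D4:**
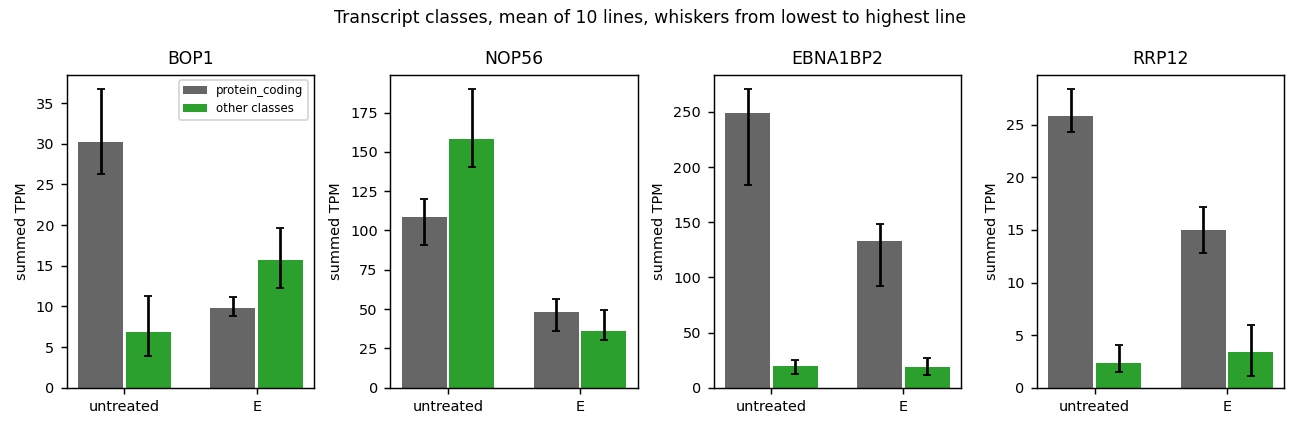
Summed TPM (vertical axes) of protein_coding transcripts and of all other transcript classes of BOP1, NOP56, EBNA1BP2 and RRP12, untreated and with E, as means of 10 lines with whiskers from the lowest to the highest line. The other classes overtake the coding ones in BOP1 with E, 15.7 against 9.81 TPM, and lose most in NOP56.

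Several members have snoRNA genes inside their bounds on the same strand, and whether these lie in introns was not checked. In the annotation 10 members did (DKC1, GNL3, NCL, NOP56, NOP58, POLR1C, PPAN, TAF1D, TSR1 and WDR43), and their median change with E was -1.06, beside -0.79 for the 44 others tested. The 10 spanned nearly the whole range, from NOP56 at -1.65 to TAF1D at -0.10, the host of 8 snoRNAs and the one with the smallest change. These are changes of summed TPM, and most of the TPM of TAF1D lay outside its protein_coding transcripts.

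Adding AF154 to erlotinib asked whether activated AXL brings these mRNAs back. In the paper only a minority of cells in the transduced lines expressed AXL, and the effect of this was not tested. In the 8 lines with a kinase-competent receptor 2 of the 54 members, NCL and DDX18, were higher with EA than with E and 0 were lower. Among all genes 1.88% were called higher, 0.473% lower and 2.36% in either direction, 171 higher and 43 lower, or 133 and 72 with library medians centred. At an unadjusted p under 0.05 there were 13 members, 12 higher and POLR1C lower, a share near the 20.9% of all genes at that threshold. The means of 40 members were higher and of 14 lower, with a median change of 0.06 beside 0.02 over all genes.

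NCL ran from 304 to 356 TPM with E (median 328) and from 334 to 397 TPM with EA (median 382) in the 8 lines. The groups overlapped, but NCL was higher with EA in each line, by 0.13 in Y643F to 0.32 in Y634F, and the change was 0.20 ± 0.03 (n = 8 lines, limma adjusted p = 0.0158). In KD the level was 297 TPM with E and 321 TPM with EA, a difference of 0.11 in a single pair. DDX18, an RNA helicase of large subunit assembly, ran from 49.9 to 63.9 TPM with E (median 56.2) and from 57.3 to 75.8 TPM with EA (median 66.4). It was higher in each of the 8 lines, by 0.02 in PAR to 0.49 in Y634F, with a change of 0.23 ± 0.05 (adjusted p = 0.0375), and went from 55.4 to 54.1 TPM in KD. Leaving out Y634F gave 0 called members (10 genes in all), with adjusted p = 0.0649 for NCL and 0.0941 for DDX18. Over all alternatives the adjusted p of NCL ran from 0.00831 to 1.0 and that of DDX18 from 0.0279 to 1.0. With protein_coding transcripts alone the differences were 0.08 for NCL (adjusted p = 0.280) and 0.07 for DDX18 (adjusted p = 0.456). Over all 10 libraries with E and all 9 with EA, the retained intron NCL-210 averaged 46.0 and 73.6 TPM. The coding NCL-201 averaged 145 and 151 TPM, and the coding NCL-203 105 and 110 TPM. DDX18 was also not called without WT, Y643F, Y698F, Y750F or Y821F.

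Other members did not pass the threshold. LYAR had the largest mean difference of all, 0.24 ± 0.07 (adjusted p = 0.0921), with 7.51 to 12.6 TPM with E and 9.66 to 14.8 TPM with EA. The smallest adjusted p among members not called were those of FBL (0.16 ± 0.04, adjusted p = 0.0560), DDX21 (0.16 ± 0.04, adjusted p = 0.0759) and NPM1 (0.12 ± 0.03, adjusted p = 0.0799). Counting direction alone, 7 members were higher with EA in all 8 lines (NCL, NPM1, FBL, UTP20, TSR1, RRP1B and DDX18), beside 3.96% of all genes. By role the median differences were 0.14 for the phosphoproteins and chaperones and for the C/D proteins, 0.08 for small subunit assembly, 0.03 for large subunit assembly, 0.00 for RNA polymerase I transcription and -0.01 for the H/ACA proteins. The 2 rRNA base-modifying enzymes had a median of 0.05 and the 3 other nucleolar factors one of 0.17.

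**Figure D5:**
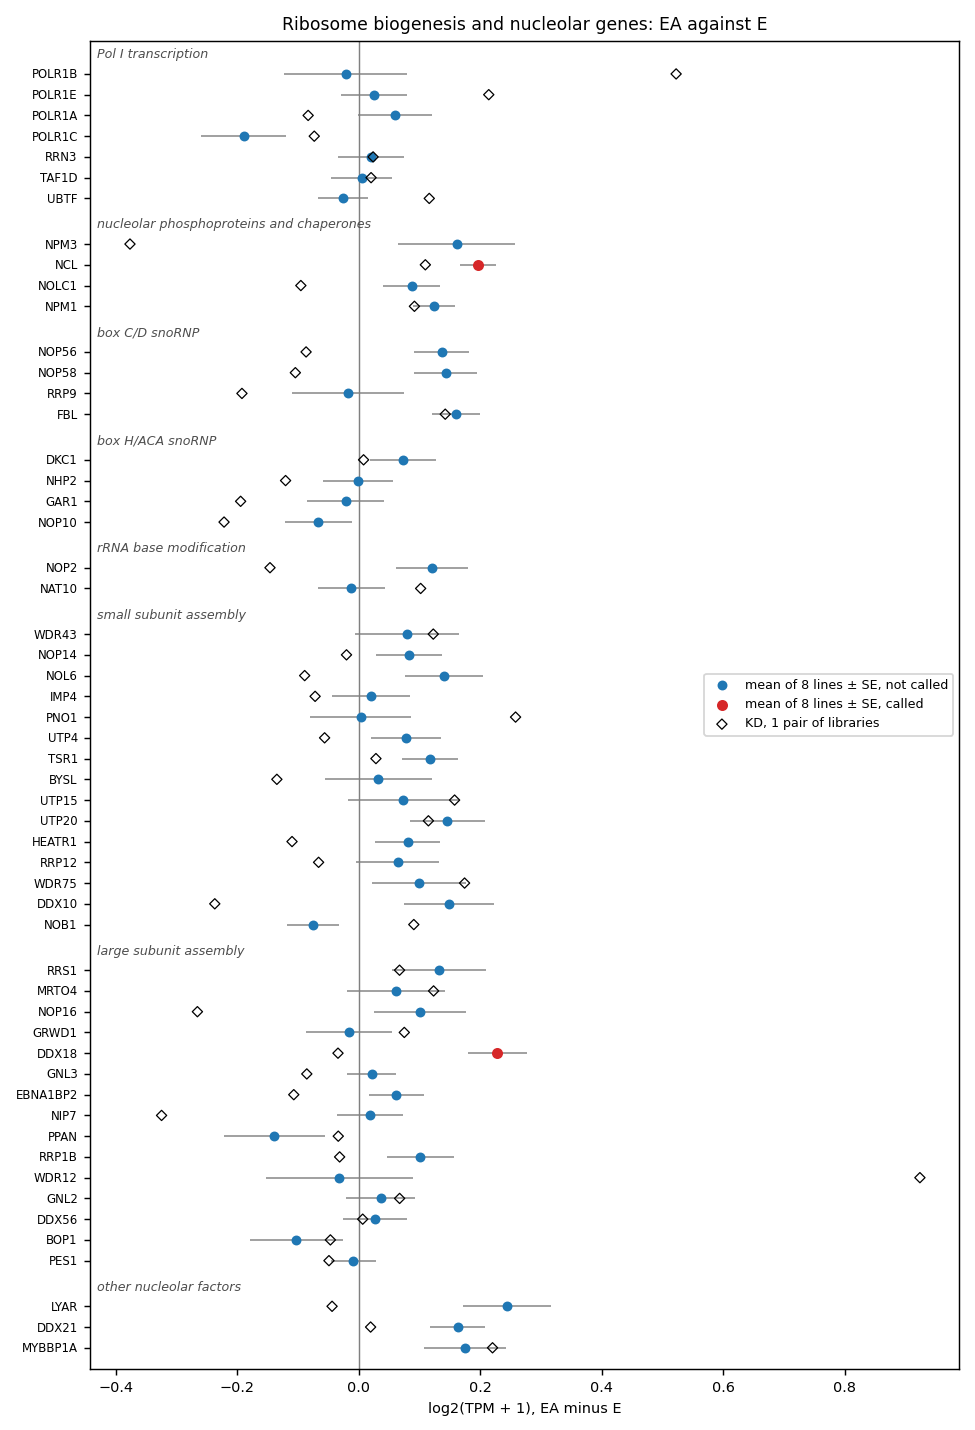
Change of each of the 54 members between EA and E, as a difference of log2(TPM + 1) (horizontal axis), with the mean of 8 lines and its SE as points and bars and the single KD pair as open diamonds. Most means lie between 0 and 0.20, the 2 called members are NCL at 0.20 and DDX18 at 0.23, and the KD diamonds scatter on both sides of 0.

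Across the lines the median difference of the members was highest in PAR, at 0.18, and between 0.03 and 0.09 in the 7 others. In KD it was -0.033, with 25 of 54 members higher (50.7% of all genes). The farthest KD value was that of WDR12, which was at 16.2 TPM with E and 31.7 TPM with EA in that single pair. Most of the WDR12 TPM in untreated and E libraries lay outside its protein_coding transcripts. For comparison, 22 of 34 replication and mitosis genes were called higher with EA, with a median of 0.34. That count was 2 without a filter or without the replicate block, 14 with a filter at 1 TPM or with KD included, and 0 in the test against a change of 0.5. It was 4 without Y634F, 7 without Y643F, 10 without Y698F, 12 without PAR and 15 without Y750F or Y821F, with medians of 0.31 to 0.36 over all lines left out in turn. Of 134 other ribosome biogenesis factors limma called 0 (22 at an unadjusted p under 0.05, against 20.9% of all genes), with a median of 0.05, and MYC was at 0.03 ± 0.08 (adjusted p = 0.869).

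With EA the members thus stayed under their untreated levels. In the same 8 lines 52 of 54 were lower with EA than untreated and 0 were higher, also at an unadjusted p under 0.05 (37.6% of all genes were lower, 33.1% higher and 70.6% either), with a median of -0.77. This comparison shares its untreated libraries with the first one and its EA libraries with the second. NCL was lower by 1.04 ± 0.05, DDX18 by 0.66 ± 0.07, NOP56 by 1.49 ± 0.04 and LYAR by 1.73 ± 0.07. NOB1 was called here, at -0.17 ± 0.04 (adjusted p = 0.00284), while TAF1D (-0.09 ± 0.07) and UBTF (-0.01 ± 0.06) were not. The share of TPM in the 55 genes was 0.339% to 0.388% with EA, under the lowest untreated share of 0.585%.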

How the data were processed

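The authors deposited transcript TPM for 29 libraries. The submitters' processing notes name kallisto and GRCh38, and its version, annotation and strand handling are not given in the sources used here, and the filter of the study at 10 TPM was not applied to the deposited table. Of 188753 transcripts, 169797 (97.0% to 97.3% of TPM) matched GENCODE 29 and were summed to genes, and the rest were not used. The 9085 genes averaging 10 TPM or more were kept, and log2(TPM + 1) was compared with limma 3.58.1 in R 4.3.3 (lmFit, eBayes with trend), with the cell line as a block because the libraries of a line are the same cells, and Benjamini-Hochberg adjustment over all of them. The transcript class ratio was fitted the same way. Tables were made with Python 3.11.15, pandas 2.3.3 and matplotlib 3.10.9. The members and all lists were chosen with earlier results of these data known. The members named were the 10 with the largest fall with E, the 5 with the smallest change, the one with the largest t in each role, those called with EA, and POLR3G, with 3 rises and 3 falls among other factors; other members were named after their values were seen. Alternatives were other pseudocounts, filters, scalings and transcript sets, no block, array weights, a test against a change of 0.5, and other lines. The fit was tested on simulated data. Of 100 genes changed by 0.5 among 9085, limma called 95 for E against untreated, 94 for EA against E and 85 for EA against untreated, with 8, 15 and 10 false calls, and 0 calls with nothing changed. The simulated noise was independent between genes and libraries, and far fewer genes were changed than the 79.0% called with E. These simulated counts therefore do not give the error rate in the real libraries. EA was compared in the 8 kinase-competent lines, without KD and KO.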

Additional observations from a re-analysis of the deposited data

Results flagged for a closer look

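In groups of 8 to 10 lines, 87 sets of values were screened for a line far from the others, of which chance alone flags about 1 in 20. There were 13 such values, 11 of them in PAR, and these are counts of overlapping libraries. For the change with E, DKC1 stood at -1.66 in PAR against -1.31 to -1.01 elsewhere, and RRN3 at -0.15 in Y643F against -0.39 to -0.27. MRTO4 was high in PAR, at 68.0 TPM untreated against 42.3 to 50.3 and at 29.7 TPM with EA against 14.3 to 18.5. TAF1D was low in PAR, at 71.5, 65.9 and 55.4 TPM untreated, with E and with EA. NOB1 was also low in untreated PAR, at 47.2 TPM against 53.8 to 59.1. POLR3G was at 8.94 TPM in PAR with EA against 1.81 to 4.29, and POLR1C at 34.1 TPM in WT with E against 20.8 to 26.9. The share of TPM in the 55 genes was lowest in PAR, at 0.585% untreated against 0.643% to 0.698% and at 0.312% with E against 0.344% to 0.376%, and the median difference between EA and E was highest there, at 0.18.

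Between EA and E, KD went the other way from all 8 other lines for DDX18, at -0.034 against 0.02 to 0.49, and for the median of the members, at -0.033 against 0.03 to 0.18. KD is a single pair and this difference was not tested.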

How the results depend on the processing

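Of 208 recomputed summaries of the members, 189 kept their direction and moved by less than the criterion for a change, which for counts is 1.5 times. For E against untreated, quantile normalization called 1 member higher (UBTF), and protein_coding transcripts alone gave a median of -0.92 with 53 members tested. For EA against untreated, protein_coding transcripts alone called 1 higher (TAF1D) and gave a median of -0.85. The test against a change of 0.5 called 32 members lower there, beside 955 of all 9085 genes. Members called higher with EA than with E were 1 with a filter at 1 TPM, with medians centred or with quantile normalization, and 0 without a filter, without the replicate block of cell lines or in the test against 0.5; they were 0 to 2 with 1 line left out. The ratio of transcript classes was higher for 4 members with a pseudocount of 0.1, beside 388 of 6735 genes. It was lower for 1 to 2 members with 1 line left out, beside 280 to 315 genes. All genes called between EA and E numbered 214, 10 to 188 with 1 line left out and 0 to 361 otherwise. Reversed values were those of UBTF (-0.066 with protein_coding transcripts, negative without Y643F or Y821F, and -0.0073 to 0.049 over all lines left out in turn), NOB1 (0.020 with quantile normalization) and TAF1D (0.16 with protein_coding transcripts). The causes were not tested. Read numbers are unknown, each line had 1 library per treatment, the lines share their descent, and small differences with EA rest on 8 pairs.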
